A study of Glycine max with 23 samples.

Results

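Glutamine synthetase joins ammonium to glutamate to make glutamine, the step through which plants take inorganic nitrogen into organic form. In plants a cytosolic class (GS1) and a plastid class (GS2) are known. The plastid enzyme is best known in leaves, where it takes back ammonium released in photorespiration, and the soybean gamma class of GS1 is best known from root nodules. In a developing legume seed the seed coat is the maternal tissue that unloads nitrogen, largely as glutamine, asparagine or ureides, and passes it to the embryo and endosperm. The 3 genes described here, GS-2, GS1-GAMMA and GS1GAMMA2, were found by their symbols in the annotation of an Affymetrix Soybean Genome Array. Each had 1 probe set, so 3 probe sets were described out of 37593 for soybean, of which 8677 carried 1 gene symbol and named 6031 genes. GS-2 (gene ID 548036) follows the naming of the plastid class, GS1-GAMMA (gene ID 547798) and GS1GAMMA2 (gene ID 547621) that of the cytosolic class, but the annotation gave symbols only and the compartment of the proteins was not measured.

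The 23 arrays came from soybean cultivar Asgrow A3237, in 10 groups. Laser capture from fixed, paraffin-embedded seeds with heart-stage embryos gave 8 compartments. These were 5 seed coat regions with 2 arrays each (endothelium, the inner and outer integuments, hilum and epidermis), and endosperm, embryo proper and suspensor with 3 arrays each. Whole seeds of the same stage and young trifoliate leaves were ground instead, with 2 arrays each. No genotype or treatment differed between groups. The labels call the arrays of a group biological replicates without tying them to plants, so p-values measure the spread between these samples.

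Signals are the deposited intensities in array units. The background of an array was the 95th percentile of its 23350 probe sets for pathogens of soybean, and it lay between 86.3 and 231.4 on 21 arrays, 420.1 on suspensor replicate 1 and 404.9 on endosperm replicate 1. Between 13378 and 23564 soybean probe sets per array were above it, and the number of arrays limits the precision. Tissue labels were read against markers: 3 of 4 embryo markers on the array, 3 of 4 seed coat markers and 5 of 7 leaf markers were highest where labelled. The embryo marker WRI1B was highest in endosperm and the seed coat marker ANR1 in whole seed. The markers were chosen with earlier results of these data known, so they are no independent check of the labels. No marker was fixed for the suspensor, the endosperm or single coat regions. In such dissected tissue, fewer cells with a transcript and less transcript per cell cannot be told apart. Signals of different probe sets depend on their probes, so levels were compared between tissues for each gene and not between genes.

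GS-2 was highest in leaf and high in every region of the seed coat. In leaf it reached 33375.1 and 30623.4. In the coat it gave 7473.0 and 10653.2 in endothelium, 8021.1 and 7544.0 in outer integument, 5784.3 and 6557.3 in hilum, 4957.7 and 5173.6 in epidermis, and 2497.1 and 4367.0 in inner integument. All 10 coat arrays were above background, and the lowest coat array was more than any array of the embryo or endosperm. In endosperm GS-2 gave 349.3, 241.0 and 393.0, in embryo proper 520.0, 530.2 and 276.8, and in suspensor 42.2, 100.7 and 102.0. The 3 embryo proper arrays and 2 of the 3 endosperm arrays were above background, and none of the 3 suspensor arrays was. Whole seed gave 6894.2 and 4354.4, which lay among the coat regions.

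GS1-GAMMA was highest in the inner integument. There it reached 39634.8 and 36971.8, the highest values of this probe set on any array. Endothelium, which lines the inside of the coat next to the endosperm, followed with 11282.4 and 6876.5. The other coat regions were far lower and less alike, with 827.6 and 1903.7 in hilum, 581.8 and 483.0 in outer integument, and 712.9 and 47.4 in epidermis, where only 1 of 2 arrays was above background. In the suspensor GS1-GAMMA was above background on all 3 arrays, with 582.2, 817.1 and 1091.1. It gave 124.5, 181.6 and 321.9 in endosperm (2 of 3 above background) and 51.1, 40.3 and 126.9 in embryo proper (1 of 3). Whole seed gave 3834.2 and 3185.0, and leaf 76.6 and 248.5, with 1 of 2 leaf arrays above background.

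GS1GAMMA2 was bright in ground tissue and dim in every captured compartment. Whole seed gave 3427.9 and 2402.2, and leaf 2198.5 and 2692.7. On the 19 captured arrays the signal ran only from 7.2 to 622.9, and 5 of them were above background. Those 5 were both endothelium arrays (247.0 and 163.3), 1 of inner integument (622.9, against 184.9 on the other), 1 of epidermis (196.0, against 80.8) and 1 of embryo proper (176.6, against 37.6 and 95.3). Hilum was lowest with 7.2 and 7.5. Outer integument (60.7 and 137.0), endosperm (152.7, 88.3 and 149.1) and suspensor (321.2, 81.6 and 9.7) were below background on every array, the 321.2 being the suspensor array of high background.

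**Figure D1:**
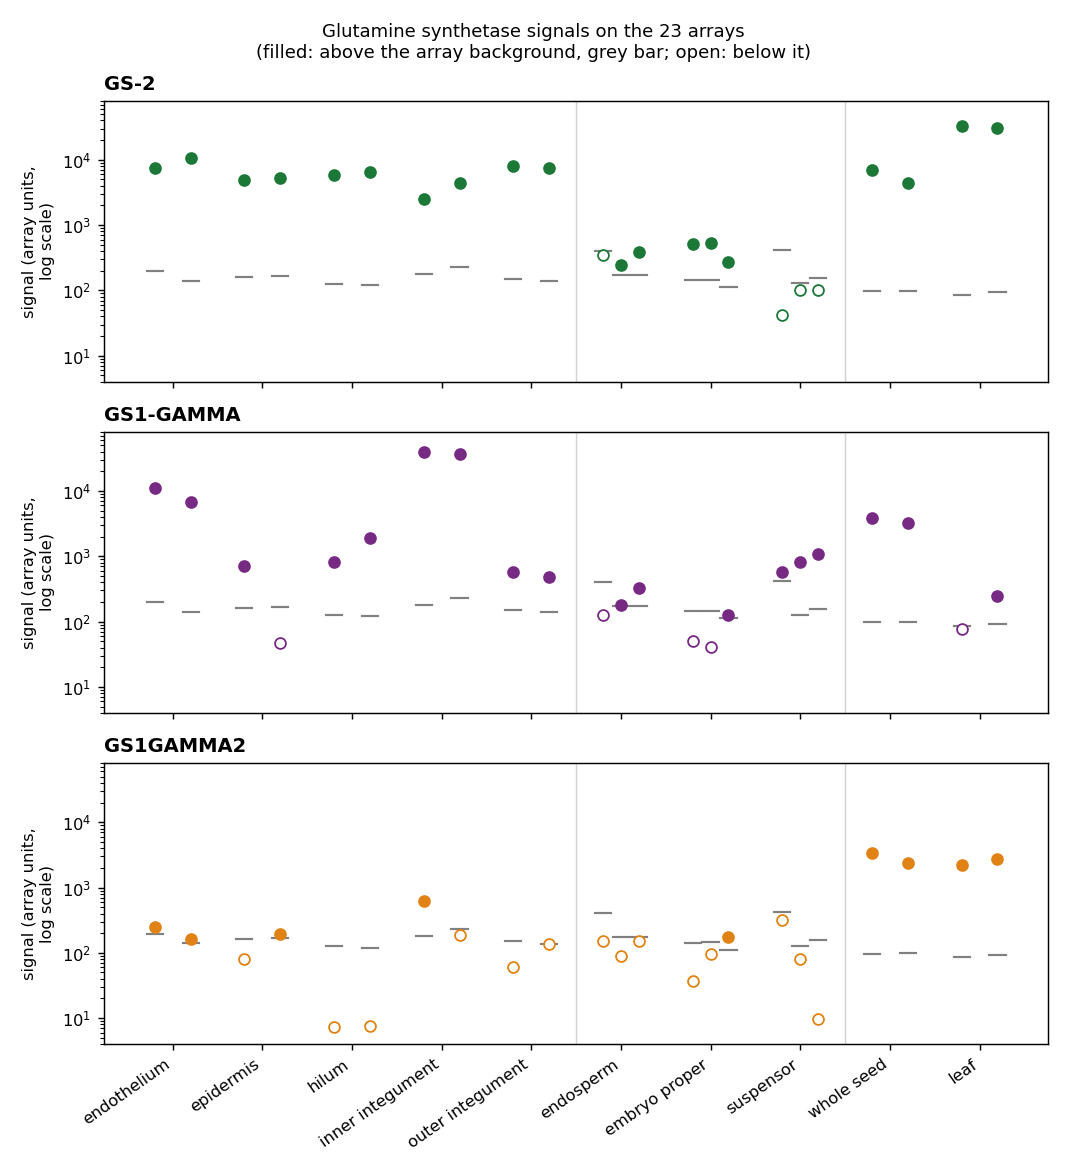
Signal of the 3 glutamine synthetase probe sets on each of the 23 arrays (log scale, array units) by sample group, with the background of each array as a grey bar; filled points are above it and open points below. GS-2 is above background on all coat and leaf arrays, GS1-GAMMA peaks in inner integument at 39634.8 and 36971.8, and GS1GAMMA2 is at 2198.5 or more in whole seed and leaf and at most 622.9 on captured arrays.

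The first comparison set the seed coat (mean of 5 regions, 10 arrays) against the embryo and endosperm (mean of embryo proper, suspensor and endosperm, 9 arrays). It was tested with limma on log2(signal + 16) with Benjamini-Hochberg adjustment over the 25686 probe sets above background in at least 1 group, and a probe set was called where adjusted p was below 0.05 and the difference at least 2-fold. GS-2 was 24.7-fold higher in the coat (log2 fold change 4.62 ± 0.19 SE, adjusted p = 1.15e-13), with no overlap between coat and filial arrays. GS1-GAMMA was 9.07-fold higher (3.18 ± 0.36, adjusted p = 3.81e-07), with overlapping arrays. The SE and p of this comparison rest on the spread within groups and leave out that between regions. For GS1-GAMMA the coat region means of log2(signal + 16) ran from 7.75 in epidermis to 15.22 in inner integument. A difference in every coat region is thus not shown. Epidermis, outer integument and hilum replicate 1 (827.6) lay within or below the range of the suspensor. GS1GAMMA2 was not called (0.13 ± 0.40, adjusted p = 0.832), with 4 of 10 coat arrays and 1 of 9 filial arrays above background. Thus 2 of 3 genes were called, where 21.5% of all tested probe sets were. The height of GS-2 in the coat was known when the genes were chosen.

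Within the coat, GS1-GAMMA and GS-2 were called in opposite directions in the inner integument. Against the other 4 regions (8 arrays), GS1-GAMMA was 35.7-fold higher there (5.16 ± 0.62, adjusted p = 2.76e-06) with no overlap. GS-2 was 2.06-fold lower in inner integument (-1.04 ± 0.33, adjusted p = 0.0274), again with no overlap, but the call was lost without inner integument replicate 1 (-0.64, adjusted p = 0.329) or endothelium replicate 2 (-0.98, adjusted p = 0.0498). It was also lost after median scaling (-0.96, adjusted p = 0.0369), which left it under 2-fold, and after quantile normalization (-1.05, adjusted p = 0.0519). GS1GAMMA2 was not called (1.93 ± 0.69, adjusted p = 0.0519), and the call rate over all probe sets was 18.8%.

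The log2 ratio of GS1-GAMMA to GS-2 was 3.08 to 3.98 on the 2 inner integument arrays and -6.36 to 0.59 on the other 8 coat arrays. This ratio was looked at because of the values above and is a description. Over the 10 coat arrays GS1-GAMMA ran from 47.4 to 39634.8 and GS-2 from 2497.1 to 10653.2.

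In the endothelium GS1-GAMMA was 5.71-fold higher than in the other coat regions (2.51 ± 0.62, adjusted p = 0.013). That call did not hold without endothelium replicate 1 (2.16, adjusted p = 0.311) or replicate 2 (2.87, adjusted p = 0.0508), where the lone array is assumed to vary like the other groups. GS-2 (0.74 ± 0.33, adjusted p = 0.231) and GS1GAMMA2 (1.02 ± 0.69, adjusted p = 0.507) were not called, and 6.53% of all tested probe sets were.

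In the epidermis GS1-GAMMA was lower than in the other coat regions (-4.19 ± 0.62, adjusted p = 0.000104), although its arrays of 712.9 and 47.4 overlapped those of the outer integument. The size was set by single arrays: the difference was -2.43 (adjusted p = 0.0302) without epidermis replicate 2, which was below background, and -5.95 (adjusted p = 1.17e-05) without replicate 1. With signals raised to background it was -3.42. GS-2 (-0.27, adjusted p = 0.734) and GS1GAMMA2 (0.27, adjusted p = 0.889) were not called there, where 7.88% of tested probe sets were. In the outer integument GS1-GAMMA was 5.68-fold lower (-2.51 ± 0.62, adjusted p = 0.0122), and 7.01% of tested probe sets were called. That call was lost without outer integument replicate 1 (-2.64, adjusted p = 0.124) or replicate 2 (-2.37, adjusted p = 0.197). The adjusted p of GS-2 in the outer integument was 0.538 and that of GS1GAMMA2 0.942.

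In the hilum, the scar region where the seed joins the pod, neither GS-2 (0.08, adjusted p = 0.933) nor GS1-GAMMA (-0.98 ± 0.62, adjusted p = 0.397) was called. GS1GAMMA2 was lower (-2.997 ± 0.69, adjusted p = 0.00653), where 9.09% of tested probe sets were called. Both hilum arrays and 4 of the other 8 coat arrays were below background, so the difference was given as at least 1.33-fold. It was not called with signals raised to the background of their array (-0.70, adjusted p = 0.333) or without hilum replicate 1 (adjusted p = 0.102) or replicate 2 (adjusted p = 0.101).

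**Figure D2:**
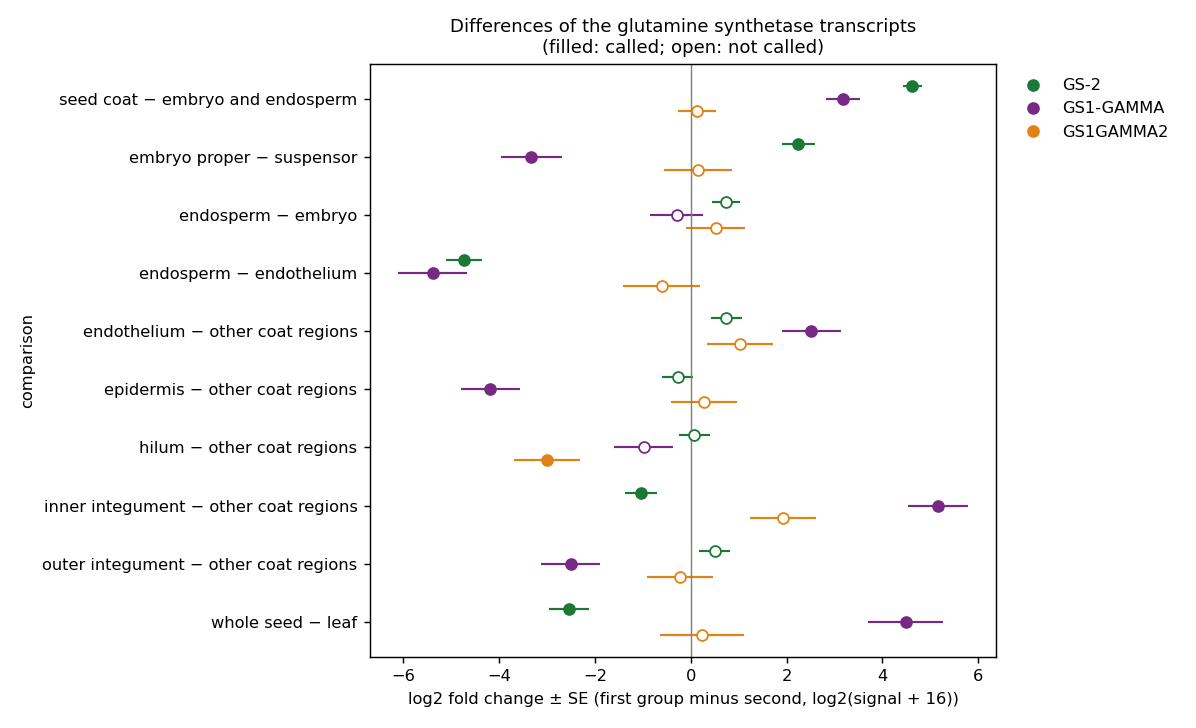
Log2 fold changes (first group minus second, with SE, on log2(signal + 16)) of the 3 glutamine synthetase genes in the 10 comparisons; filled points were called and open points were not. In the coat regions GS1-GAMMA reaches 5.16 in inner integument and -4.19 in epidermis (-2.43 without epidermis replicate 2), whereas GS-2 stays between -1.04 and 0.74.

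In the embryo, GS-2 and GS1-GAMMA differed between embryo proper and suspensor in opposite directions. The suspensor is the stalk that attaches the embryo proper to the seed and feeds it early on. GS1-GAMMA was lower in the embryo proper (-3.33 ± 0.64, adjusted p = 0.000452), with no overlap between 40.3 to 126.9 in embryo proper and 582.2 to 1091.1 in suspensor. GS-2 was higher in the embryo proper (2.25 ± 0.34, adjusted p = 3.65e-05), with no overlap either. The fold was given as at least 1.997 because the suspensor was below background. With signals raised to background the GS-2 difference fell just short of the 2-fold limit (1.00, adjusted p = 0.0442). For GS1-GAMMA, which was below background on 2 of 3 embryo proper arrays, it was then -2.41 (adjusted p = 6.68e-05). GS1GAMMA2 was not called (0.15 ± 0.71, adjusted p = 0.913), and 23.1% of all tested probe sets were.

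The GS1-GAMMA signal of the suspensor stood beside seed coat marker signal. The summed signal of the 4 seed coat markers was 253.9 to 296.6 in embryo proper and 1395.9 to 5769.9 in suspensor, against 18913.3 to 48262.7 in the coat regions. In suspensor 1 of these 4 markers was above background on all arrays and 0 of 4 were on none. In embryo proper 0 of 4 were above background on all arrays and 3 of 4 on none. The suspensor mean of GS1-GAMMA was 2.17% of its inner integument mean. GS-2 was at most 102.0 and below background in the suspensor, and gave 2497.1 and 4367.0 in inner integument. The part of coat material in the suspensor values was not tested.

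In endosperm, the nutritive tissue around the embryo, GS-2 and GS1-GAMMA were far below the endothelium beside it. Against the embryo as the mean of embryo proper and suspensor (6 arrays), none of the 3 genes was called at a rate of 19.2% over all probe sets. The log2 differences were 0.74 ± 0.29 for GS-2 (adjusted p = 0.0783), -0.29 ± 0.55 for GS1-GAMMA (adjusted p = 0.754) and 0.52 ± 0.62 for GS1GAMMA2 (adjusted p = 0.597). Unadjusted, p from limma was 0.0205 for GS-2 and above 0.05 for the other two. That mean joins parts in which GS-2 and GS1-GAMMA differed in opposite directions. Against the suspensor alone, GS-2 was higher in endosperm by at least 1.53-fold (suspensor minus endosperm -1.86 ± 0.34, adjusted p = 0.0003) and GS1-GAMMA was 3.89-fold lower in endosperm (suspensor minus endosperm 1.96 ± 0.64, adjusted p = 0.0275). Against the embryo proper alone neither was called (adjusted p = 0.469 for GS-2 and 0.141 for GS1-GAMMA).

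Against the endothelium, GS-2 was 26.5-fold lower in endosperm (-4.73 ± 0.38, adjusted p = 7.64e-09) and GS1-GAMMA 41.8-fold lower (-5.39 ± 0.71, adjusted p = 7.4e-06). Endosperm arrays held 241.0 to 393.0 of GS-2, and endothelium arrays 7473.0 to 10653.2. For GS1-GAMMA they held 124.5 to 321.9 in endosperm and 6876.5 to 11282.4 in endothelium. GS1GAMMA2 was not called (-0.61 ± 0.80, adjusted p = 0.643), and 21.5% of all tested probe sets were.

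Between the ground tissues, GS-2 was 5.82-fold lower in whole seed than in leaf (-2.54 ± 0.42, adjusted p = 0.000204) and GS1-GAMMA 22.4-fold higher (4.49 ± 0.78, adjusted p = 0.000357). With only 1 of 2 leaf arrays above background, the GS1-GAMMA difference was 3.73 (adjusted p = 0.0153) without leaf replicate 1 and 5.24 (adjusted p = 0.00135) without leaf replicate 2. After quantile normalization that of GS-2 was -3.31. Neither gene's arrays overlapped between the tissues. GS1GAMMA2 was not called (0.24 ± 0.87, adjusted p = 0.924), its 2 arrays in each tissue overlapping. Of all tested probe sets 13.2% were called, of which 39.1% were higher in whole seed, or 26.3% after median scaling, which changed the median log2 difference of all tested probe sets to -0.13, against 0.12 as deposited.

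Beside the height of GS-2 in leaf, the summed signal of 7 markers of leaf and green plastids, such as Rubisco activase genes, was 30953.6 to 36097.4 in whole seed, against 114588.1 to 125357.0 in leaf. It was 57817.0 to 106569.3 in embryo proper, where GS-2 averaged 1.38% of its leaf mean, and 14649.1 to 73202.3 over the coat arrays, where the region means of GS-2 were 10.7% to 28.3% of leaf. In endosperm the marker sum was 1394.5 to 2037.1. Of the 7 markers 5 were highest in leaf, CAB3 in embryo proper and the Rubisco activase gene RCABETA in epidermis. Such a sum weighs its brightest probe sets most and does not measure green plastids. The part of green plastids in the GS-2 values was not tested.

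The order of the 10 groups was read from contrasts of all 45 pairs, each adjusted over all tested probe sets. Of these pairs 30 were called for GS-2, 27 for GS1-GAMMA and 19 for GS1GAMMA2, against 18.3% of all probe sets and pairs pooled. For GS1GAMMA2 these were all pairs of whole seed or leaf with a captured compartment, which also differed in preparation. The rest were pairs with hilum, where both arrays were below background. For hilum against endosperm no array on either side was above background. GS-2 ran from leaf through endothelium, outer integument, hilum, whole seed, epidermis, inner integument, embryo proper and endosperm to suspensor. Only 3 of its 9 neighbouring pairs differed: leaf from endothelium (1.84 ± 0.42, adjusted p = 0.0024), inner integument from embryo proper (2.91 ± 0.38, adjusted p = 3.91e-06) and endosperm from suspensor (1.86 ± 0.34, adjusted p = 0.0003). The coat regions and whole seed therefore formed a run within which neighbours did not pass the test. The 2 ends of that run did differ. Endothelium was 2.69-fold higher than inner integument (1.43 ± 0.42, adjusted p = 0.0347), with no overlap.

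GS1-GAMMA ran from inner integument through endothelium, whole seed, hilum, suspensor, outer integument, epidermis, endosperm and leaf to embryo proper. None of its 9 neighbouring pairs passed the test, inner integument and endothelium among them (2.12 ± 0.78, adjusted p = 0.102). Inner integument was called higher than each of the other groups except endothelium, and by 10.9-fold over whole seed (3.45 ± 0.78, adjusted p = 0.00339). GS1GAMMA2 was highest in whole seed and then leaf, an order that turned after median scaling, and inner integument followed below a step that passed the test (2.77 ± 0.87, adjusted p = 0.0183). Its other 8 neighbouring pairs did not.

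Whole seed contains all the captured compartments, and for GS-2 and GS1-GAMMA its mean lay below that of the brightest one, at 0.621 and 0.0916 times it. For GS1GAMMA2 it was 7.22 times the highest compartment mean (2915 ± 725 in whole seed, SD, n = 2, against 404 ± 310 in inner integument, SD, n = 2). In the pairwise contrasts whole seed was higher than each of the 8 compartments. The differences in log2 were 3.01 ± 0.87 over inner integument (adjusted p = 0.0176), 3.73 ± 0.87 over endothelium (adjusted p = 0.00895) and 4.78 ± 0.80 over embryo proper (adjusted p = 0.000174). The lower whole seed value of GS1GAMMA2, 2402.2, was reached on both whole seed arrays by 4481 soybean probe sets. Of these, 9 (0.201%), with GS1GAMMA2 among them, had a ratio as large, and the median ratio of the 4481 was 0.531.

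Captured and ground tissue also differed in fixation and in the extraction reagent. Of 3 control transcripts with probe sets at both ends, 1 for actin had a ratio of 3' to 5' signal of 9.25 to 14.6 on the 4 ground arrays and 1.21 to 10.5 on the 19 captured arrays. For the other 2 the ground arrays lay within the captured range, with 1.97 to 16.5 on ground and 0.166 to 61.5 on captured arrays for ubiquitin, and 74.9 to 142.8 and 23.2 to 493.3 for another actin control. Preparation, and parts of the seed that were not captured, cannot be told apart for the whole seed signal of GS1GAMMA2.

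**Figure D3:**
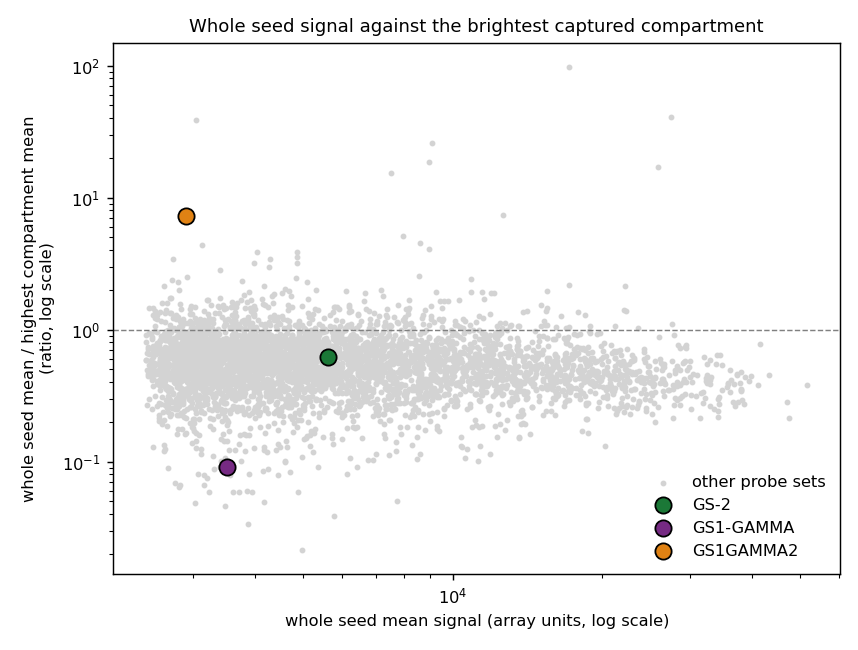
Whole seed mean signal (x axis, array units) against its ratio to the highest mean of the 8 captured compartments (y axis), both on log scales. Points are the 4481 soybean probe sets at 2402.2, the lower whole seed value of GS1GAMMA2, or more on both whole seed arrays. The dashed line marks equality. GS1GAMMA2 stands at 7.22, GS-2 at 0.621 and GS1-GAMMA at 0.0916, with a median of 0.531 over all points.

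The 3 genes were little alike among themselves. Over the 10 group means of log2(signal + 16), Pearson's r was 0.21 between GS-2 and GS1-GAMMA, 0.42 between GS-2 and GS1GAMMA2, and 0.14 between GS1-GAMMA and GS1GAMMA2. These are descriptions over 10 means that share their arrays. The log2 ratio of GS1-GAMMA to GS-2 differed by -1.44 between the 10 coat and 9 filial arrays and did not pass an exact 2-sided permutation test (adjusted p = 0.295 over 3 pairs). That test moved single arrays between coat and filial tissue, so its spread includes differences between regions and not only between replicates. The ratios of GS1GAMMA2 to the other two genes are not read, since GS1GAMMA2 was above background on only 5 of these 19 arrays.

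Among the 848 other named genes compared, those most like GS-2 over the 10 groups were BZIP80 (r = 0.94), a transcription factor, ACSL2 (r = 0.91), a long-chain acyl-CoA synthetase, and the aquaporins PIP1-7 (r = 0.91) and PIP2-8 (r = 0.91). Both aquaporins were highest in outer integument and not in leaf. ACSL2 was above background on 2 of 19 captured arrays. Those most like GS1-GAMMA were SWEET13 (r = 0.92), of a family of sugar transporters, AUX22 (r = 0.91), an auxin-induced gene, J1 (r = 0.90) and CYP90A15 (r = 0.89), a cytochrome P450. All 4 were highest in inner integument, where AUX22 averaged 31968 and SWEET13 5776.

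The genes most like GS1GAMMA2 were SEOF (r = 0.94), which codes for a sieve element occlusion protein of phloem, CEL12 (r = 0.91), BZIP16 (r = 0.89) and EN1 (r = 0.89). SEOF gave 957.8 ± 81.9 in whole seed and 2613 ± 825 in leaf (SD, n = 2 each) and was above background on 1 of 19 captured arrays. CEL12 was above background on 1 captured array, and BZIP16 and EN1 on 0 of 19. Most captured signals of GS1GAMMA2 and of these genes were thus below background, and the likenesses rest on the contrast of ground with captured tissue.

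The array also held probe sets of other cytosolic glutamine synthetases. GS1beta1 was above background on all 23 arrays with its brightest probe set and was highest in epidermis and hilum. It gave 39137.7 and 32045.1 in epidermis and 30934.3 and 27470.2 in hilum, against 3372.4 and 3988.1 in inner integument. It was 3.82-fold higher in epidermis (1.93 ± 0.37, adjusted p = 0.00137) and 4.43-fold lower in inner integument (-2.15 ± 0.37, adjusted p = 0.000176) than in the other coat regions. By description only, chosen after the values were seen, the log2 ratio of GS1-GAMMA to GS1beta1 was 3.21 to 3.55 on the inner integument arrays and -8.98 to 0.57 on the other 8 coat arrays, and that of GS-2 to GS1beta1 was -0.43 to 0.13 on the inner integument arrays, within the -2.98 to 0.79 of the others.

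The brightest probe set of GS1beta2 was 4.12-fold higher in epidermis (adjusted p = 0.00506) and 4.19-fold higher in hilum (adjusted p = 0.00425). It was lower in inner integument (-2.91 ± 0.45, adjusted p = 6.03e-05), where its arrays gave 378.3 and 66.9, the second below background. Its other 2 probe sets, above background on 22 arrays each, were called in none of these regions and differed by 0.19 and -0.42 in inner integument. The 2 beta genes are close in sequence and probe sets may read both, the other 4 probe sets of GS1beta1 were above background on 0 to 11 arrays, and the other 2 of GS1beta2 were also not called in the coat comparison, so these values are uncertain for either gene. GS1alpha was above background on 1 and 2 arrays with its 2 probe sets and was not tested. Over the 10 groups GS1beta1 had r = 0.65 with GS-2 and r = -0.04 with GS1-GAMMA.

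**Figure D4:**
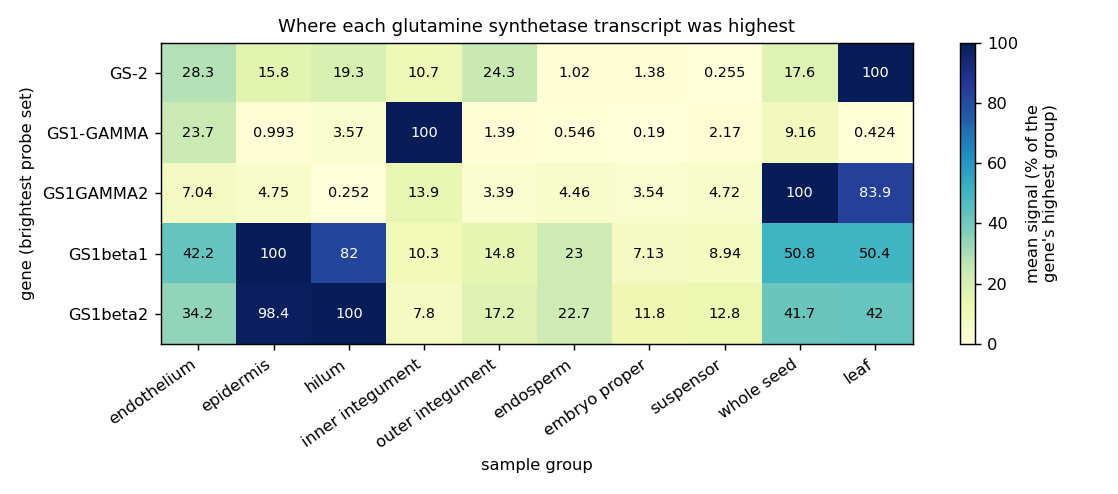
Mean signal of each glutamine synthetase gene (brightest probe set) in the 10 groups, as a percent of that gene's highest group, so that rows show patterns and not levels between genes. GS-2 is at 100% in leaf, GS1-GAMMA is at 100% in inner integument, and GS1beta1 is at 100% in epidermis and 10.3% in inner integument.

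Other genes of nitrogen assimilation were taken from a list of 33 genes, including the 3 other glutamine synthetases, matched by symbol and each read by its brightest probe set, of which 30 were tested. Between coat and filial tissue 8 were higher in the coat and 6 lower, with a median log2 difference of 0.13, against -0.03 over all tested probe sets. These calls made up 46.7% of the tested list genes, against 21.5% of all tested probe sets. The list shares, here and below, count only the brightest probe set of a gene. The shares of all tested probe sets include dimmer ones and several of the same gene, so the shares are not like for like. AAH, an allantoate amidohydrolase that releases ammonium from ureides, stood 5.62-fold above the filial mean in the coat, adjusted p being 1.67e-11. The 2 glutamate dehydrogenases, which join or release ammonium at glutamate, differed in direction, GDH1 being 5.49-fold higher (adjusted p = 2.35e-07) and GDH2 7.03-fold lower in the coat (adjusted p = 1.08e-09). LOC100796533, a glutamate decarboxylase by its synonym GAD, was 6.26-fold lower there (adjusted p = 4.13e-07).

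In the inner integument, where GS1-GAMMA was highest, 2 list genes were higher and 6 lower than in the other coat regions. That was 26.7% of the tested list, against 18.8% of all tested probe sets. The 2 higher ones were AAH (3.41-fold, adjusted p = 2.03e-05) and GDH1 (5.71-fold, adjusted p = 0.000368). GS1beta1 and GS1beta2 were among the 6 lower. In endothelium 4 were higher and 1 lower (16.7% of the tested list, against 6.53% of all tested probe sets). PPC1, a phosphoenolpyruvate carboxylase that supplies carbon for amino acids, was 2.96-fold higher (adjusted p = 0.00362). GDH2 was 2.99-fold higher (adjusted p = 0.00882), LOC100796533 4.50-fold higher (adjusted p = 0.0102) and the nitrate transporter NRT1-3 14.1-fold lower (adjusted p = 0.00945).

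In epidermis 3 list genes were higher and 4 lower (23.3% of the tested list, against 7.88% of all tested probe sets). Besides the beta genes, the asparaginase GM-ASNASE1, which releases ammonium from asparagine, was 5.39-fold lower (adjusted p = 0.00415), and LOC100796533 was lower by at least 1.15-fold (adjusted p = 0.000342). In hilum 3 were higher and 5 lower (26.7% of the tested list, against 9.09% of all tested probe sets). GDH1 was 21.0-fold lower (adjusted p = 1.52e-06), LOC100796533 19.3-fold higher (adjusted p = 8.46e-06) and AAH 2.92-fold lower (adjusted p = 0.000225). In outer integument 5 were higher and 1 lower (20.0% of the tested list, against 7.01% of all tested probe sets). There GM-ASNASE1 was 8.67-fold higher (adjusted p = 0.000383), EU3, a urease accessory protein, 6.35-fold higher (adjusted p = 0.000922), ALAAT1, an alanine aminotransferase, 2.44-fold higher (adjusted p = 0.00617) and GS1beta1 2.84-fold lower (adjusted p = 0.0112).

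In the embryo proper 2 list genes were higher and 7 lower than in the suspensor. That was 30.0% of the tested list, against 23.1% of all tested probe sets. INR2, a nitrate reductase, was 28.0-fold lower (adjusted p = 3.64e-06), LOC100796533 13.9-fold lower (adjusted p = 1.44e-05) and ALAAT1 3.04-fold lower (adjusted p = 0.000359), and EU3 was 13.2-fold higher (adjusted p = 8.83e-06). Endosperm held 2 higher and 4 lower genes against the embryo, 20.0% of the tested list and close to the 19.2% of all tested probe sets. GS1beta1 was 2.82-fold higher (adjusted p = 0.00193). LOC100796533 was at least 14.0-fold (adjusted p = 2.57e-09), INR2 at least 3.29-fold (adjusted p = 1.42e-05) and GDH1 at least 1.46-fold lower (adjusted p = 0.00159). Against endothelium 5 were higher and 6 lower in endosperm (36.7% of the tested list, against 21.5% of all tested probe sets). AAH was 6.83-fold lower there (adjusted p = 2.68e-07), LOC100796533 lower by at least 1.81-fold (adjusted p = 0.000441), ALAAT1 6.22-fold higher (adjusted p = 4.56e-06) and GDH2 4.43-fold higher (adjusted p = 0.000707).

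In whole seed 2 list genes were higher and 6 lower than in leaf (26.7% of the tested list, against 13.2% of all tested probe sets). The arginase AG1 was lower by at least 76.6-fold (adjusted p = 6.3e-07) and INR2 by at least 28.5-fold (adjusted p = 3.68e-06). GDH2 was 6.50-fold higher in whole seed (adjusted p = 0.000331), and LOC100790824, named SAT1 for ammonium transport, was higher by at least 7.93-fold (adjusted p = 0.00143). GS1beta1 was not called here, with 17915.8 and 18223.4 in whole seed and 15213.2 and 20631.2 in leaf.

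**Figure D5:**
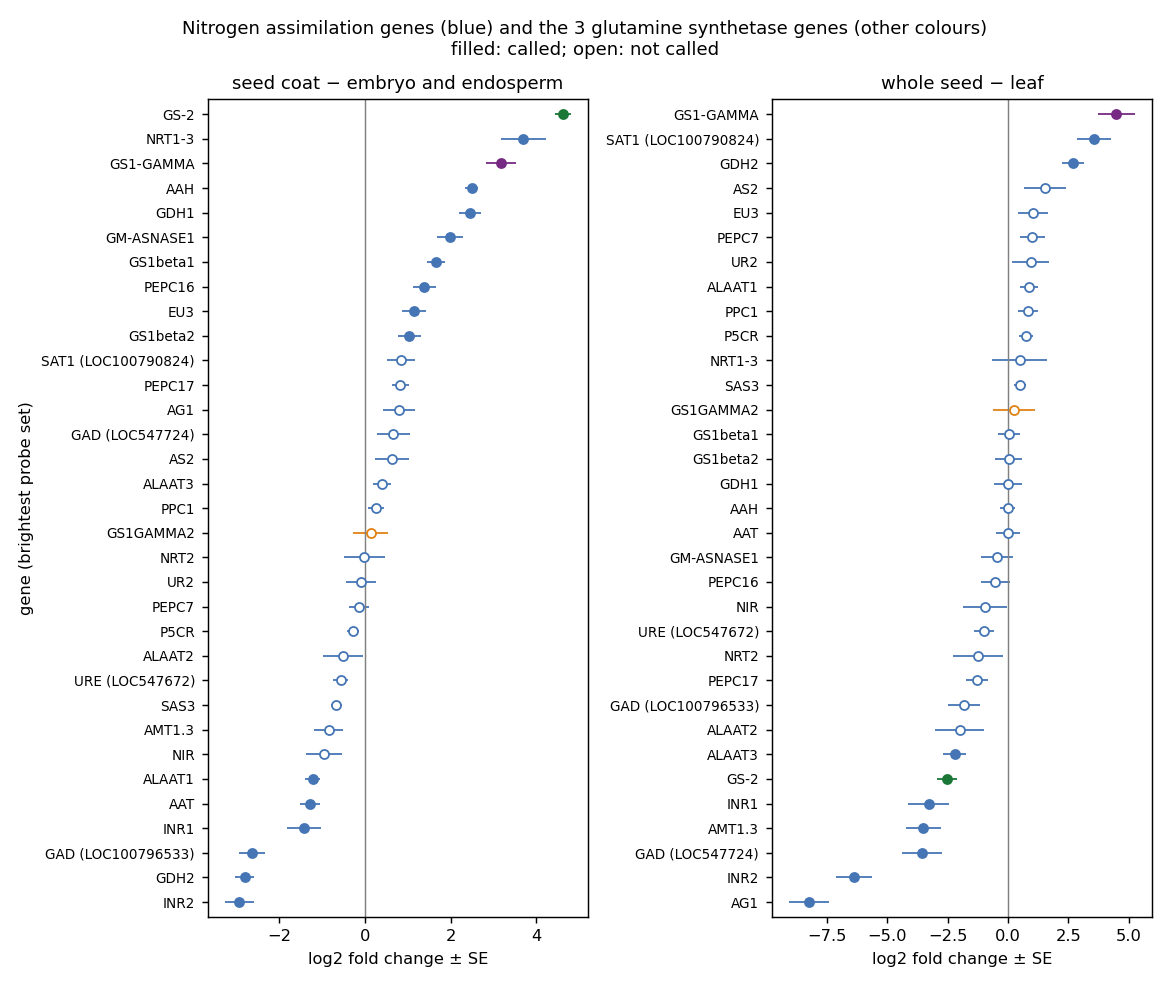
Log2 fold changes with SE of the 30 tested nitrogen genes (blue) and of GS-2, GS1-GAMMA and GS1GAMMA2 (other colours), for seed coat against embryo and endosperm on the left and whole seed against leaf on the right; filled points were called. GS-2 (4.62) and GS1-GAMMA (3.18) are near the top on the left, and on the right GS1-GAMMA (4.49) is at the top with GS-2 (-2.54) among the lower genes.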

How the data were processed

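RNA of captured and ground tissue, amplified and labelled with biotin, was hybridised to 1-colour arrays, per the labels' protocols. The authors deposited linear intensities, with 1 value for each probe set on each array, and the submitters' processing notes name GCOS 1.3. The sources used here do not say how probes were summarised, and the files name no genome build, so no coordinates are given. Trimmed by 2% at both ends, the mean of all 61170 probe sets lay between 500.05 and 500.07, and the arrays were not scaled further. A fixed mean makes levels relative to the array's total.

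Signals were analysed as log2(signal + 16), which understates folds of dim genes. One model of 10 groups over 23 arrays (13 residual degrees of freedom) was fitted with limma 3.58.1 in R 4.3.3 (lmFit, eBayes with a trend), and contrasts were 2-sided with Benjamini-Hochberg adjustment over 25686 tested probe sets. An "at least" fold stands where every array of the dimmer side was below background, whose mean was then taken at each array's background. The ratio of GS1-GAMMA to GS-2 was tested on 19 captured arrays by exact permutation. The script was tested on simulated data.

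The genes, the nitrogen list, the markers and the tests were chosen with earlier results of these data known. Named genes were the members, the 4 most alike per member and, of the list, up to 4 called genes with the smallest adjusted p per comparison. From the list 11 symbols that name or may name other proteins were left out by name. Gene names came from the platform annotation, with symbols updated through RefSeq. Same-numbered arrays of different groups varied together little in the median (93 pairs, r from -0.135 to 0.263, median 0.007), but some pairs did weakly. Suspensor replicate 1 and endosperm replicate 1 also shared a high background (420.1 and 404.9). Shared variation by replicate number is thus not excluded. Replicate numbers were not used as a block in the main model, and a block was tried as an alternative. The alternatives tried are given in the closing section.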

Additional observations from a re-analysis of the deposited data

How the results depend on the processing

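Alternatives covered the offset, the scaling, a floor at background, the filter on dim probe sets, the replicate block, the 2 arrays of high background and each array in turn. Among the values of the 3 genes, 200 of 212 kept their direction and call under the first 6 kinds, and 260 of 279 when 1 array was left out. With the replicate block, GS-2 in the coat against the filial tissues was 4.63 in log2 (adjusted p = 7.33e-12), and no call of the 3 genes changed. A choice between probe sets could not be tried, since each gene had 1. Depth of signal limits GS1GAMMA2: all its reversals were in differences that were not called. With the background floor its log2 differences were -0.026 (coat), -0.37 (embryo proper against suspensor), 0.19 (endosperm against endothelium), -0.11 (epidermis), -0.70 (hilum, no longer called) and 1.18 (inner integument, then called, as with 1.91 after quantile normalization), and -0.034 for whole seed against leaf after median scaling. For GS-2 the floor gave 1.00 for embryo proper against suspensor, quantile normalization -1.05 and median scaling -0.96 in inner integument (all no longer called), and median scaling -0.020 in hilum. The ratio of GS1GAMMA2 to GS1-GAMMA between coat and filial arrays, not read above because GS1GAMMA2 was mostly below background, no longer passed its test without the 2 arrays of high background (-2.81).

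Leaving out 1 array, GS1GAMMA2 ranged from -0.18 to 0.44 in the coat, -0.79 to 1.06 in embryo proper against suspensor, -0.29 to 0.84 in epidermis, -3.21 to -2.79 in hilum, 1.09 to 2.76 in inner integument, -0.73 to 0.27 in outer integument and -0.018 to 0.49 in whole seed against leaf. GS-2 ranged from -0.024 to 0.18 in hilum and -1.44 to -0.64 in inner integument, and GS1-GAMMA from 2.07 to 2.95 in endothelium and -2.95 to -2.06 in outer integument. The size of 2 kept calls of GS1-GAMMA moved by over 1.5 times, to -5.95 and -2.43 in epidermis without epidermis replicate 1 or 2 and to 3.73 and 5.24 in whole seed against leaf without leaf replicate 1 or 2. Counts of called probe sets ranged from 3386 to 5243 for endosperm against endothelium (5527 with all arrays), 530 to 1793 for endothelium (1677), 798 to 2196 for epidermis (2023), 828 to 2625 for hilum (2334), 2572 to 4823 for inner integument (4837), 645 to 1957 for outer integument (1801) and 1693 to 2069 for whole seed against leaf (3385). The lowest counts came from leaving a group with 1 array, by the loss of endothelium replicate 1, inner integument replicate 2, or either array of epidermis, hilum, outer integument, whole seed or leaf. The count for whole seed against leaf was also 2203 when a probe set had to be above background on 0.5 of the arrays, which tests fewer.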
